A study of Homo sapiens with 12 samples.

Results

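The response of PHGDH-knockdown keratinocytes to a treatment named Mix was measured by RNA sequencing in HaCaT cells, an immortalised human keratinocyte line. PHGDH-siRNA cells had received siRNA against PHGDH, and PHGDH-siRNA+Mix cells had received that siRNA and Mix for 24 h, with 3 libraries in each group. These 6 libraries are part of a set of 12. The other 6 came from HaCaT cells given control siRNA, 3 without Mix (Control-siRNA) and 3 with Mix for 24 h (Control-siRNA+Mix). What Mix contains, its dose and the siRNA sequences are not given here, and no label says that libraries of 1 group are separate cultures. The p-values therefore measure only the spread between these libraries, pooled over all 12, which may be technical. Levels are FPKM, fragments per unit of gene length, scaled to library depth. Of 58735 genes in the table, 14009 were tested, those whose mean reached 0.5 FPKM in PHGDH-siRNA or in PHGDH-siRNA+Mix, and 11229 of them were protein coding.

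Keratinocytes sense inflammatory cytokines through receptors that activate NF-kappaB, MAP kinases acting on the transcription factor AP-1, and JAK-STAT signalling. In inflamed epidermis they then make antimicrobial peptides, S100 alarmins, chemokines that draw neutrophils, IL-36 and wound keratins, while programmes of normal cornification and of proliferation are rearranged. PHGDH, phosphoglycerate dehydrogenase, opens the synthesis of serine, from which glycine and the folate-bound carbon units used to make nucleotides are derived.

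The knockdown, the cell type and the likeness of replicates bear on every result below. PHGDH was at 23.7, 20.1 and 16.9 FPKM in the PHGDH-siRNA libraries and 19.1, 13.3 and 11.5 in PHGDH-siRNA+Mix, below each of the Control-siRNA libraries (36.5, 56.2 and 45.8) and the Control-siRNA+Mix libraries (31.9, 31.2 and 26.6). All 12 keratinocyte markers were detected, with summed levels of 2715 to 7516 FPKM without Mix and 5835 to 9660 with Mix, while the fibroblast, melanocyte, leukocyte and endothelial lists summed to at most 3.28 FPKM in any of the 6 libraries. On the leukocyte list PTPRC, CD3E, CD3D and MS4A1 were at 0 in all 6, and the highest member was CD14, at up to 2.63 FPKM. The replicate 2 libraries of both PHGDH-siRNA groups stood apart from replicates 1 and 3. Against the mean of replicates 1 and 3, 613 genes differed by more than 1 log2 unit in the same direction in both groups, against 8 genes in the control groups, and 14 of the 613 were among the calls described next. The replicate 2 libraries held KRT14, a basal keratin, at 2986 and 2737 FPKM against 548 to 1092 in the other 4. Mitochondrial ribosomal RNA took 0.740% and 0.708% of their reads, against 0.249% to 0.359% elsewhere. The response was therefore also computed without this pair.

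Mix changed 1306 of the 14009 genes (9.32%; limma on log2(FPKM + 1), Benjamini-Hochberg adjusted p below 0.05): 762 rose (5.44%) and 544 fell (3.88%). Large changes were mostly rises. A log2 change of 2 or more was reached by 82 called genes that rose and 5 that fell, and 15 rose by 4 or more, with none falling that far. Over all tested genes the median change was 0.00 and 50% lay above 0, which the scaling of the deposited values sets, and the median was -0.07 with libraries scaled to the sum of their reads. The 2 groups did not overlap in 1298 of the 1306 called genes, against 3085 of all genes tested (22%). With the replicate number as a block within the PHGDH-siRNA groups, all 1306 calls were kept and 1806 genes rose (12.9%) and 1542 fell (11%). Without the replicate 2 pair 1228 rose (8.77%) and 1023 fell (7.3%), and 1213 of the 1306 were kept. A fit of the 2 PHGDH-siRNA groups alone called 197 up and 57 down. That fit takes no spread from the control libraries and has fewer residual degrees of freedom. With libraries scaled to the sum of their reads instead of the size factors built into the deposited values, 635 rose and 868 fell, 42.2% up in place of 58.3%. Single libraries also set the number: without PHGDH-siRNA replicate 3 there were 426 up and 268 down, without PHGDH-siRNA replicate 1 497 and 293, without PHGDH-siRNA+Mix replicate 3 521 and 262, and without PHGDH-siRNA+Mix replicate 1 360 down.

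**Figure D1:**
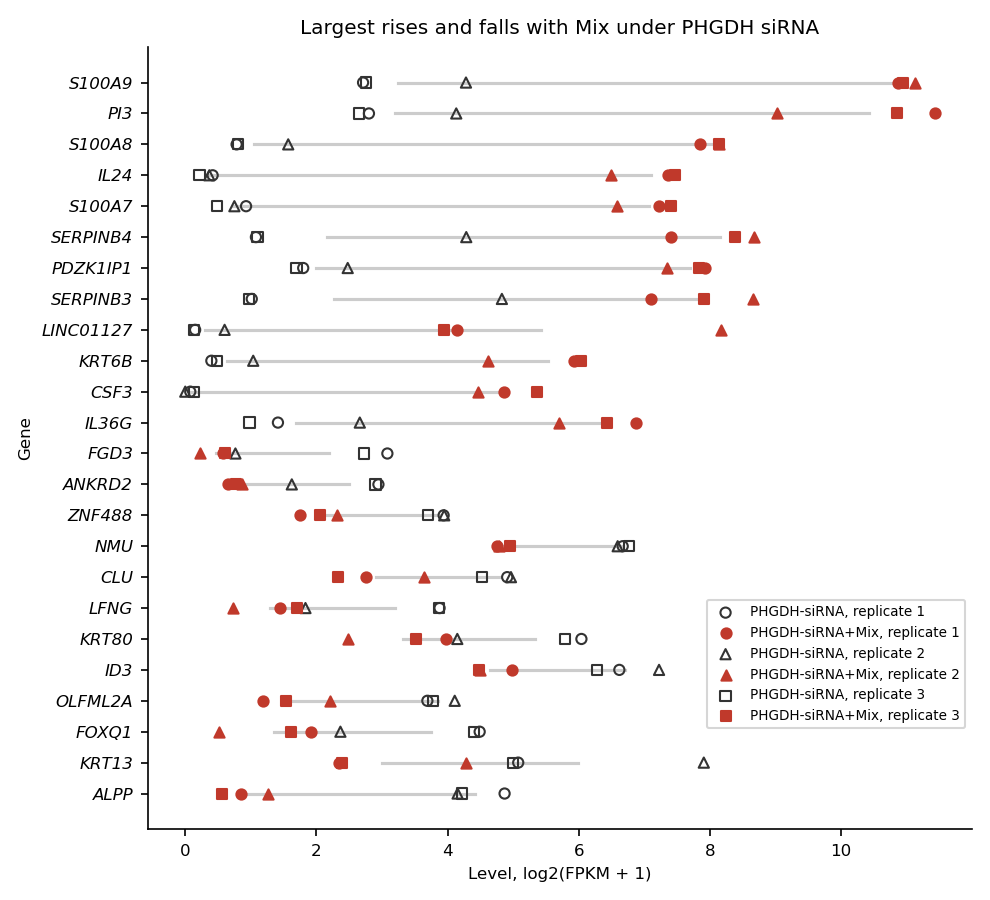
Levels of the 12 genes that rose most and the 12 that fell most, chosen among called genes whose groups did not overlap, as log2(FPKM + 1) on the horizontal axis. Each symbol is 1 library (open, PHGDH-siRNA; filled, PHGDH-siRNA+Mix; shapes, replicates 1 to 3) and the grey line joins the group means; the replicate 2 triangles often stand away from the other 2 shapes.

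Antimicrobial proteins and S100 alarmins, which keratinocytes release to kill microbes and alert leukocytes, formed the list with the highest median. Of 22 genes on the list 16 were tested, and 10 rose and 0 fell, with a median log2 change of 2.58. The called members were S100A7, S100A8, S100A9, S100A12, DEFB4A, LCN2, PI3, SLPI, SAA1 and SAA2. S100A9 (ENSG00000163220, hg38 chr1:153357854-153361027, plus strand), which pairs with S100A8 to form calprotectin, was at 5.55, 18.4 and 5.76 FPKM in PHGDH-siRNA replicates 1 to 3 and at 1859, 2227 and 1977 in PHGDH-siRNA+Mix. Replicate 2 was the highest of the untreated libraries, and every treated library lay far above it. Means were 9.91 ± 7.37 and 2021 ± 188 FPKM (SD, n = 3). The log2 change was 7.73 (SE 0.40, limma adjusted p = 1.06e-06), and 8.17 without the replicate 2 pair. S100A8 (ENSG00000143546, hg38 chr1:153390032-153391188, minus strand) went from 0.72, 1.97 and 0.746 to 229, 282 and 280.1 FPKM (log2 change 6.99, SE 0.23, limma adjusted p = 2.29e-08). S100A7 (ENSG00000143556, hg38 chr1:153457744-153460701, minus strand), or psoriasin, was at 0.901, 0.681 and 0.4 FPKM without Mix and at 148, 95 and 169 with it. Its treated libraries were 95 FPKM or more and its untreated ones below 1 (log2 change 6.35, SE 0.21, limma adjusted p = 2.29e-08).

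PI3 (ENSG00000124102, hg38 chr20:45174876-45176544, plus strand), which encodes the elastase inhibitor elafin, showed the same direction with a wider spread. It was at 5.97, 16.5 and 5.3 FPKM without Mix and at 2747, 517 and 1844 with Mix, so the treated replicate 2 was the lowest of its group and still above all untreated libraries. The log2 change was 7.23 (SE 0.60, limma adjusted p = 4.07e-05). LCN2, the iron-sequestering lipocalin, was already at 54.8, 39.7 and 43.3 FPKM without Mix and reached 1250.0, 324 and 1111, again lowest in replicate 2 (4.04, limma adjusted p = 0.000164). DEFB4A, beta-defensin 2, followed the pattern at low levels, with 0.477, 0.274 and 0.141 and 32.2, 4.41 and 38.6 FPKM (3.90, limma adjusted p = 0.0019). S100A12 was listed at 0 in all 3 untreated libraries and at 11.8, 9.91 and 7.62 FPKM with Mix (limma adjusted p = 3.95e-07). DEFB4A has a near-identical copy and S100A7 a close paralog, so their counts may be split or shared.

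Among IL-1 and IL-36 family genes, 13 of 16 were tested and 5 rose, with 0 down and a median of 0.83. The risers were the ligands IL1A, IL1B and IL36G and the receptors IL1R1 and IL1R2. IL1A (ENSG00000115008, hg38 chr2:112773915-112784590, minus strand), an alarmin held inside epithelial cells, was at 29.9, 17.1 and 15 FPKM without Mix and 386, 158 and 220.2 with Mix (3.52, SE 0.33, limma adjusted p = 0.000103). IL1B went from 37, 19.4 and 25.3 to 572, 112 and 297 FPKM (3.30, limma adjusted p = 0.00115), and its treated replicate 2 was again the lowest. IL36G, the IL-36 cytokine typical of psoriatic epidermis, went from 1.66, 5.33 and 0.971 to 116, 50.8 and 85.6 FPKM (4.65, SE 0.40, limma adjusted p = 5.17e-05). IL1R2, a decoy that binds IL-1 without signalling, went from 1.83, 1.58 and 1.47 to 30.5, 56.9 and 26.9 FPKM, and here the treated replicate 2 was the highest (3.82, limma adjusted p = 4.89e-06). IL1R1, the signalling receptor, stayed low, at a mean of 0.566 and 2.54 FPKM (1.18, limma adjusted p = 0.000119). The antagonists IL1RN (0.30) and IL36RN (0.19) did not pass (limma adjusted p = 0.468 and 0.396), though IL1RN passed with the replicate block (adjusted p = 0.0291). The count was 8 without the replicate 2 pair and 10 with the replicate block.

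Of 18 tested genes for IL-6, IL-20 and CSF family members and other cytokines (22 on the list), 8 rose, with a median of 1.21. Counts with the replicate block were 12 up and 1 down. IL24 (ENSG00000162892, hg38 chr1:206897443-206904139, plus strand), an IL-20 family cytokine that acts on keratinocytes themselves, was at 0.336, 0.29 and 0.163 FPKM without Mix and at 164, 88.5 and 177 with Mix. No untreated library reached 1 FPKM and the lowest treated one was replicate 2 (6.77, SE 0.21, limma adjusted p = 2.29e-08). CSF3, the granulocyte growth factor G-CSF, went from 0.0544, 0 and 0.0966 to 28.1, 21 and 40.1 FPKM (4.83, SE 0.19, limma adjusted p = 9.92e-08). IL19 and IL20, of the same family, reached 4.83, 1.5 and 6.04 and 3.51, 1.52 and 3.86 FPKM, against 0, 0.0201 and 0.0207 and 0.0385, 0.0333 and 0.137 without Mix (2.21 and 1.83, limma adjusted p = 0.00094 and 0.000327). LIF rose by 1.36 and TNF by 1.33 (limma adjusted p = 0.00741 and 0.000398). CSF2 and IL11 were called too. IL6 was at 7.21, 0.781 and 2.62 FPKM without and 31.6, 2.98 and 12.2 with Mix and did not pass (1.67, limma adjusted p = 0.162), nor did IL23A (1.12, limma adjusted p = 0.071). In IL6 the replicate 2 library was the lowest of each group, and both genes passed with the replicate block (adjusted p = 0.000164 and 0.003).

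Chemokines rose in 6 of 15 tested (21 on the list), 0 fell, and the median was 0.65. Counts with the replicate block were 8 up and 1 down. CXCL8 (ENSG00000169429, hg38 chr4:73740506-73743716, plus strand), the neutrophil attractant IL-8, was at 20.5, 4.74 and 9.74 FPKM without Mix and 219.8, 64.6 and 218 with Mix. The groups did not overlap, and replicate 2 was the lowest library in each (3.74, SE 0.51, limma adjusted p = 0.00106). CXCL1, another ligand of the receptor CXCR2, went from 67.7, 47.1 and 39.5 to 178, 113 and 229 FPKM (1.71, limma adjusted p = 0.00204). CCL20, which draws CCR6-bearing T cells and dendritic cells, was nearly absent without Mix and reached 3.16, 0.746 and 3.8 FPKM (1.63, limma adjusted p = 0.00702). CXCL2, CXCL6 and CCL5 also passed (1.48, 1.09 and 1.45), but the list held only 3 calls without replicate 1 or 3 of PHGDH-siRNA, or without replicate 3 of PHGDH-siRNA+Mix. CCL2 (0.60) and CXCL16 (0.60) were not called (limma adjusted p = 0.224 and 0.0508), and CXCL16 was called with the replicate block (adjusted p = 0.0217). The promoters of CXCL8 and IL1A are printed because both genes rose over 10-fold and each window holds the AP-1 motif TGANTCA, read on both strands and shown in capitals. Sequences here are RefSeq promoter windows on GRCh38.p14, 250 bases before to 50 after the first listed start, 5′ to 3′ on the gene's strand.
CXCL8, chr4:73740319-73740618, plus strand: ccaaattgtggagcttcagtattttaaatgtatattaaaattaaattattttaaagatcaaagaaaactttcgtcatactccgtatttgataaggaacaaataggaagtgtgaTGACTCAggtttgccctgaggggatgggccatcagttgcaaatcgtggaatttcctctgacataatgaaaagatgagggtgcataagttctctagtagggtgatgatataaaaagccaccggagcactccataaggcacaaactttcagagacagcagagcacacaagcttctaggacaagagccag
IL1A, chr2:112784444-112784743, minus strand: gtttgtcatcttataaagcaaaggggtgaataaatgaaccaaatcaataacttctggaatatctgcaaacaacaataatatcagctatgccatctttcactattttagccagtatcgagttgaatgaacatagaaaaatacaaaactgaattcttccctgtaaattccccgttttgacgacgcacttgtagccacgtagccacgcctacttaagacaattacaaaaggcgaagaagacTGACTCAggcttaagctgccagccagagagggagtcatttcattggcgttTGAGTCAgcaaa
The AP-1 letters were present in 15 of 52 promoters (28.8%) of genes called up with a log2 change of 2 or more, in 54 of 532 (10.2%) of all genes called up, in 21 of 376 (5.59%) of genes called down and in 454 of 9258 (4.9%) of tested genes with a window. Over all 27326 promoters the share was 7.77%. A match is a description of letters, not a bound site, and the printed promoters were chosen after the matches were seen.

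NF-kappaB feedback and target genes rose in 15 of 32, all of them tested, with 1 down and a median of 0.76. SOD2, the mitochondrial superoxide dismutase, was at 3.36, 5.67 and 4.04 FPKM without Mix and 61.2, 102 and 68.3 with Mix (3.86, SE 0.20, limma adjusted p = 1.09e-06). NFKBIZ (ENSG00000144802, hg38 chr3:101827991-101861022, plus strand), which encodes the nuclear cofactor IkappaB-zeta needed for many IL-17 and IL-36 responses, varied little within groups: 2.29, 2.39 and 2.45 FPKM and 9.65, 11.1 and 13.1 FPKM (1.85, SE 0.13, limma adjusted p = 1.2e-05). TNFAIP3 (ENSG00000118503, hg38 chr6:137867188-137883312, plus strand), the ubiquitin-editing inhibitor A20, went from 12.6, 20.2 and 8.28 to 67.3, 107 and 56.8 FPKM (2.44, limma adjusted p = 0.000394), highest in replicate 2 of both groups. TRAF1, TNIP3 and IRAK2 rose by 2.36, 2.08 and 1.89, and the inhibitor NFKBIA was called as well. CD83 fell by 0.66 (limma adjusted p = 0.047), a call lost without PHGDH-siRNA replicate 1 or 3 or PHGDH-siRNA+Mix replicate 2 or 3. The promoters of TNFAIP3 and NFKBIZ are shown with the kappaB consensus in capitals, searched on both strands.
TNFAIP3, chr6:137867009-137867308, plus strand: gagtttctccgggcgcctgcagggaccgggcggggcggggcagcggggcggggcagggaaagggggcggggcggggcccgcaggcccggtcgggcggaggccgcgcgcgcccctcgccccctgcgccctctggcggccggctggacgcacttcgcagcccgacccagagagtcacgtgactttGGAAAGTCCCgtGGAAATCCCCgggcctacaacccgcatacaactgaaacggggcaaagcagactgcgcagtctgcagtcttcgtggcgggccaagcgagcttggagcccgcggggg
NFKBIZ, chr3:101827740-101828039, plus strand: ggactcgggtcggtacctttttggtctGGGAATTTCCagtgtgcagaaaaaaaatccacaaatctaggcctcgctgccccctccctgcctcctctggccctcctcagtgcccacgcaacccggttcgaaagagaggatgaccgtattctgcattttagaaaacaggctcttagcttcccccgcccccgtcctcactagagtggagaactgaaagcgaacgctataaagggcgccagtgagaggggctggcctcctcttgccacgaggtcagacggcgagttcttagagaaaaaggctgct
The consensus occurred in 11 of 29 promoters of this list (37.9%), against 14.7% of genes called up, 13% of genes called down, 13.3% of tested genes and 10.9% of all promoters. The list was drawn up from genes known as NF-kappaB targets, so its share is no independent observation.

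Receptors and JAK-STAT genes also held calls. Of 20 tested cytokine receptors (25 listed), 6 rose and 1 fell, with a median of 0.11. OSMR, the oncostatin M receptor, was at 16.7, 16.4 and 15.6 FPKM and then 51.2, 38.6 and 48.2 with Mix (1.44, SE 0.14, limma adjusted p = 0.000105). IL13RA1 rose by 1.21 and IL7R by 1.15 (limma adjusted p = 0.000209 and 0.0022), while IL17RE fell by 0.82 (adjusted p = 0.0455), a call lost without any 1 of the 6 libraries other than PHGDH-siRNA+Mix replicate 2. With the replicate block 3 receptors fell. In the JAK-STAT3 and acute-phase list 7 of 18 tested genes (28 listed) rose and 0 fell, with a median of 0.51. SOCS3, a feedback inhibitor of gp130 receptors, was at 8.73, 4.29 and 5 FPKM without Mix and 55, 28.8 and 56 with Mix (2.76, limma adjusted p = 0.000131). SOCS1 went from 1.45, 3.16 and 1.31 to 15.1, 20.6 and 18.3 FPKM (2.72, limma adjusted p = 2.42e-05). SOCS2 and LRG1, a secreted acute-phase protein, rose by 0.70 and 1.23. The JAK-STAT3 count was 4 without PHGDH-siRNA replicate 3 or PHGDH-siRNA+Mix replicate 1, and 13 with the replicate block.

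Complement genes rose in 5 of 12 tested (18 listed), and CLU fell. C1S and C1R, the proteases of the first complement component, rose together: C1S from 2.09, 3.73 and 1.77 to 36.5, 30.5 and 35.8 FPKM (3.36, limma adjusted p = 1.06e-06) and C1R from 2.46, 7.13 and 1.84 to 28.6, 42.8 and 28.5 FPKM (2.97, limma adjusted p = 0.000237). CFB, of the alternative pathway, went from 0.0967, 0.156 and 0.0859 to 3.08, 4.5 and 3.38 FPKM (2.05), and CD59, which blocks the lytic complex, rose by 1.01 (limma adjusted p = 9.16e-06 and 0.000148). Interferon-stimulated genes held 3 rises and 1 fall in 35 tested, with a median of 0.33 and 27 members above 0. The share called up was not far from the 5.44% over all genes. ISG20 (1.38) and ISG15 (0.87) were called (limma adjusted p = 0.000217 and 0.0194), whereas IFIT1 (-0.15), OAS1 (-0.02) and IFI6 (-0.03) were not (limma adjusted p = 0.672, 0.976 and 0.966). The number of rises was 1 without PHGDH-siRNA replicate 1, 5 without the replicate 2 pair and 12 with the replicate block. Of 18 tested antigen presentation genes 0 were called, with 2 up without PHGDH-siRNA replicate 2, 3 without the replicate 2 pair and 5 with the replicate block. Among checkpoint ligands, CD274, which encodes PD-L1, went from 2.73, 1.92 and 1.97 to 9.81, 8.27 and 6.41 FPKM (1.51, limma adjusted p = 0.000163). PDCD1LG2, PD-L2, rose by 1.64 and CD47, the signal that limits phagocytosis, by 0.91 (limma adjusted p = 0.000241 and 0.00398). Of 9 tested checkpoint ligands 3 rose and 1 fell, and 5 rose and 2 fell with the replicate block.

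Enzymes tied to inflammation rose in 9 of 17 tested (26 listed), with a median of 0.68, and the count was 5 without PHGDH-siRNA replicate 3. Counts with the replicate block were 12 up and 2 down. ACOD1, the enzyme of itaconate synthesis, was at 0.0832, 0 and 0 FPKM without Mix and 1.89, 3.33 and 2.76 with Mix (1.81, SE 0.15, limma adjusted p = 3.85e-05). PTGS2, cyclooxygenase-2, went from 0.653, 1.58 and 0.651 to 8.87, 6.72 and 8.09 FPKM (2.21, limma adjusted p = 7.04e-05). TYMP, thymidine phosphorylase, rose by 2.01 and NAMPT, which feeds NAD synthesis, by 1.48 (limma adjusted p = 0.000721 and 0.00201). Metallothionein MT2A was abundant before and after, at 386, 211 and 264 and 1651, 1092 and 1496 FPKM (2.32, limma adjusted p = 0.000146), while MT1E, at a mean of 136 and 183 FPKM, was not called (0.37, limma adjusted p = 0.727).

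**Figure D2:**
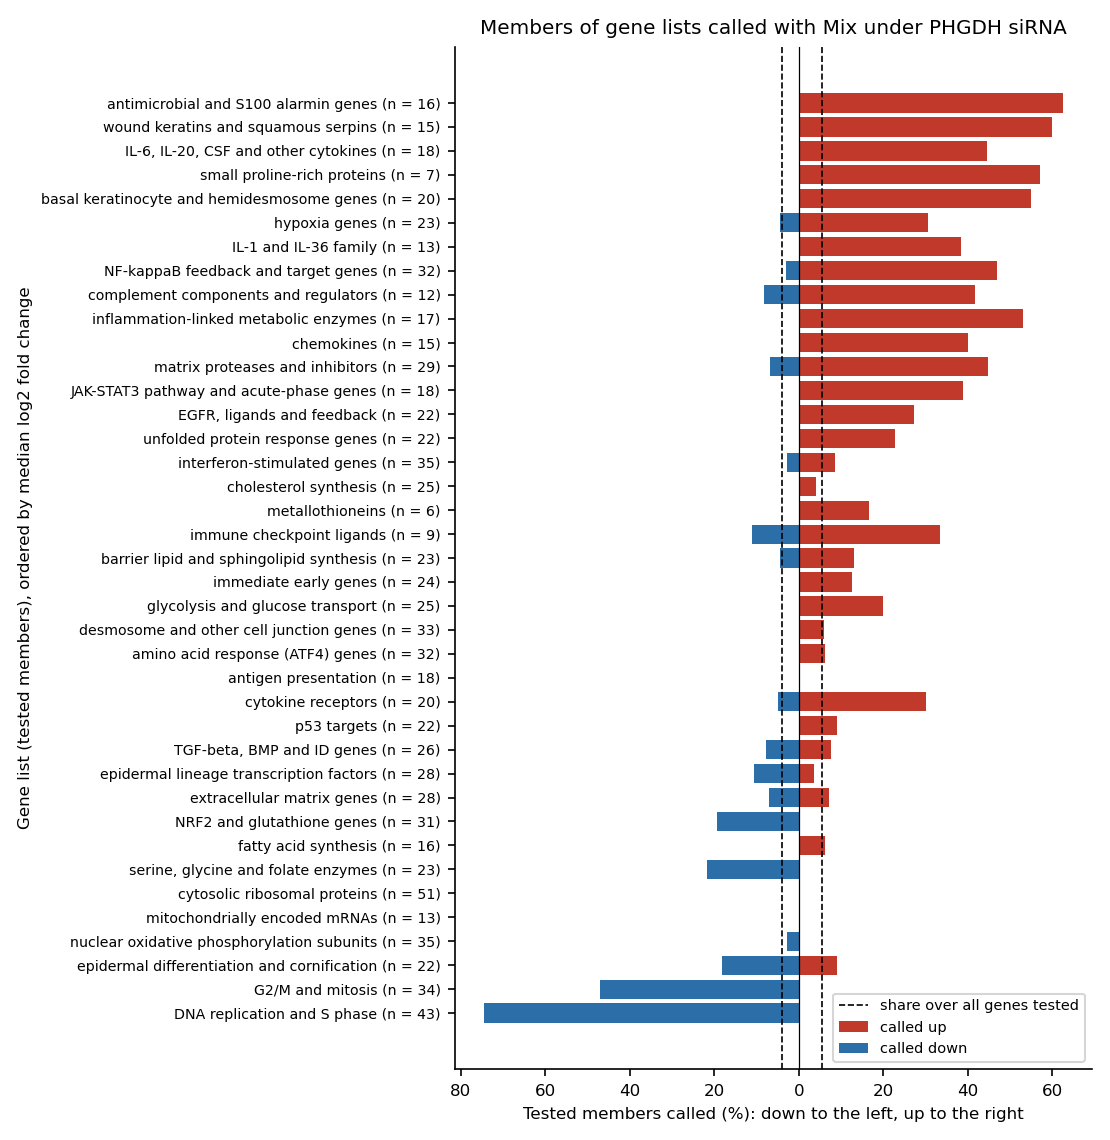
Share of the tested members of each gene list called with Mix under PHGDH siRNA, in percent, up to the right and down to the left, with lists ordered by median log2 change. The dashed lines mark the shares over all genes tested, 5.44% up and 3.88% down; the antimicrobial list stands at the top with 10 of 16 up and the DNA replication list at the bottom with 32 of 43 down.

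Wound keratins and squamous serpins rose in 9 of 15, all tested, with 0 down and a median of 1.46. The replicate block gave 12 up and 1 down. KRT6B, a keratin of wounded and hyperproliferative epidermis, was at 0.318, 1.05 and 0.399 FPKM without Mix and 60.1, 23.5 and 64.5 with Mix (4.89, SE 0.32, limma adjusted p = 7.06e-06). KRT17 went from 179, 399.7 and 157 to 746, 987 and 612 FPKM, so that untreated replicate 2 lay closest to the treated libraries without reaching them (1.77, limma adjusted p = 0.00654). KRT16, the partner of KRT6, was not called. It was at 6.98, 32.3 and 6 FPKM without Mix and 18, 104 and 15.9 with Mix, higher with Mix within each replicate number but with both replicate 2 libraries high, so that the groups overlapped (1.39, limma adjusted p = 0.264). It was called with the replicate block (adjusted p = 0.000205) and without the replicate 2 pair (1.26, adjusted p = 0.00136). SERPINB4 and SERPINB3, inhibitors of proteases known as squamous cell carcinoma antigens, were at 1.11, 18.5 and 1.15 and 1.02, 27.4 and 0.966 FPKM without Mix. With Mix they were at 169, 405 and 332 and 136, 403 and 239.6 FPKM (limma adjusted p = 0.000394 and 0.00198). In both genes the untreated replicate 2 was over 10 times the other untreated libraries, and the log2 change of SERPINB3 was 5.62, and 6.51 without the replicate 2 pair. SERPINB3 and SERPINB4 are near-identical, as are members of the KRT6 family, so the split between them is uncertain.

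Cornification genes went in both directions. Of 22 tested (38 listed) 2 rose and 4 fell, with a median of -0.46, and 16 lay below 0. PADI3, which citrullinates proteins of hair and epidermis, fell from 2.35, 1.75 and 2.4 to 0.29, 0.322 and 0.475 FPKM (log2 change -1.21, SE 0.15, limma adjusted p = 0.000448). IVL, the envelope protein involucrin, was at 3.34, 2.74 and 3.54 and 1.19, 0.753 and 1.61 FPKM (-0.96, limma adjusted p = 0.0179), a call lost without PHGDH-siRNA replicate 1 or 3 (adjusted p = 0.0612 and 0.0736). KRT10, the keratin of the suprabasal layers, was at 29.4, 8.63 and 25.7 and 23.3, 9.38 and 18.3 FPKM and the groups overlapped (-0.23, limma adjusted p = 0.803). Falls numbered 2 without PHGDH-siRNA replicate 3, 8 without the replicate 2 pair and 11 with the replicate block. Small proline-rich proteins, cross-linked into the envelope and also induced by stress, rose in 4 of 7 tested, with SPRR2A at 1.28, 0.441 and 1.29 and 5.51, 7.39 and 7.93 FPKM (2.01, limma adjusted p = 0.000243). Members of the SPRR2 group are alike in sequence, and 2 of the 4 calls were lost without PHGDH-siRNA replicate 1 or 3.

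Of 20 basal keratinocyte and hemidesmosome genes, all tested, 11 rose and 0 fell, with a median of 0.91. The replicate block gave 14 up and 2 down. LAMA3, a laminin chain of the basement membrane on which keratinocytes migrate, was at 18.2, 25.7 and 21.5 FPKM without Mix and 91.9, 104 and 96.8 with Mix (2.12, SE 0.15, limma adjusted p = 9.99e-06). LAMB3, another laminin chain, went from 153, 299 and 120.0 to 899, 825 and 537 FPKM (2.05, limma adjusted p = 0.00176). ITGA5, a fibronectin receptor chain of wound-edge cells, rose by 2.13, and the hemidesmosomal collagen COL17A1 by 1.18 (limma adjusted p = 0.000436 and 0.000205). Desmosome and other junction genes gave 2 rises in 33, close to the 5.44% over all genes, with a median of 0.19. They gave 1 without PHGDH-siRNA replicate 1 or 3 or PHGDH-siRNA+Mix replicate 1 or 3, 4 without PHGDH-siRNA replicate 2, 5 without the replicate 2 pair and 7 with the replicate block.

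Matrix proteases and their inhibitors rose in 13 of 29 tested (31 listed) and fell in 2, with a median of 0.63. CTSB, the lysosomal protease cathepsin B, was at 122, 111 and 97.9 FPKM without Mix and 998, 667 and 890.4 with Mix, a 7.73-fold difference of means (2.92, SE 0.17, limma adjusted p = 2.41e-06). PLAU, the urokinase that activates plasminogen, went from 175, 172 and 119.7 to 872, 664 and 510.2 FPKM (2.11, limma adjusted p = 0.000149). Its receptor PLAUR rose by 1.33 (limma adjusted p = 0.000146). MMP1, interstitial collagenase, was at 7.7, 16.8 and 5.93 and 149.8, 42.2 and 128 FPKM (3.20, limma adjusted p = 0.00121). MMP9 and MMP10 were called up and MMP2 and CTSV down. The falls numbered 1 without PHGDH-siRNA replicate 1 or PHGDH-siRNA+Mix replicate 3, 4 without the replicate 2 pair and 6 with the replicate block. Extracellular matrix genes gave 2 up and 2 down of 28 tested, not far from the 5.44% up and 3.88% down over all genes, with a median of 0.00. That balance was unstable, with 0 up without PHGDH-siRNA replicate 1 or 3, 5 and 6 down without replicate 2 of PHGDH-siRNA or of PHGDH-siRNA+Mix, 4 up and 9 down without that pair, and 7 up and 8 down with the replicate block.

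EGFR ligands and feedback genes rose in 6 of 22 tested, with a median of 0.50, and in 3 without PHGDH-siRNA replicate 3. The replicate block gave 13 up and 2 down. TGFA went from 27.7, 21.1 and 25.9 to 71.6, 54 and 54.9 FPKM (1.24, limma adjusted p = 0.000327) and NRG1 rose by 1.14 (adjusted p = 0.00426). AREG, at 122, 12.4 and 76.8 and 634, 26.2 and 218 FPKM, did not pass (1.63, limma adjusted p = 0.386), and EGFR itself was at a mean of 24.6 and 36.8 FPKM (0.54, limma adjusted p = 0.0766). Both passed with the replicate block (adjusted p = 0.00142 and 0.028). In the TGF-beta, BMP and ID list, 2 of 26 tested rose and 2 fell, not far from the 5.44% up and 3.88% down over all genes. With the replicate block 11 rose and 5 fell. Rises numbered 1 without PHGDH-siRNA replicate 1 or 3 or PHGDH-siRNA+Mix replicate 1 or 3, and 4 without PHGDH-siRNA+Mix replicate 2 or without the replicate 2 pair. INHBA, whose product forms activin A, went from 5.2, 2.99 and 5.97 to 51.8, 30.4 and 43.8 FPKM (2.92, SE 0.24, limma adjusted p = 3.89e-05). ID3, an inhibitor of basic helix-loop-helix factors and a BMP target, fell from 97.2, 148 and 76.5 to 30.7, 21.5 and 21.2 FPKM (-2.05, SE 0.29, limma adjusted p = 0.00129), and SMAD6, an inhibitor of BMP signalling, fell by 0.85 (adjusted p = 0.00219).

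The pathway that PHGDH opens held falls and no rise. Of 23 tested serine, glycine and folate genes (28 listed) 0 rose and 5 fell, with a median of -0.13. PHGDH itself, given per library above, did not pass (-0.46, SE 0.21, limma adjusted p = 0.215), but passed with the replicate block (adjusted p = 0.0496). PSAT1, the aminotransferase after PHGDH, was at 171, 73.3 and 151 FPKM without Mix and 216, 58.1 and 119.8 with Mix, lowest in replicate 2 of both groups (-0.11, limma adjusted p = 0.906). PSPH, the phosphatase that releases serine, was at 30.3, 12.1 and 27.3 and 25.7, 8.98 and 19.9 FPKM (-0.35, limma adjusted p = 0.629, and 0.0107 with the replicate block). SHMT2, the mitochondrial enzyme that turns serine into glycine, was at a mean of 82.4 and 92.2 FPKM (0.10, limma adjusted p = 0.898). Among the 5 that fell were MTHFD1 (-0.67), TYMS (-0.77), SHMT1 (-0.58) and GCSH (-0.72). MTHFD1 and TYMS serve purine or thymidylate synthesis. MTHFD1 was at 16.1, 18.9 and 18.2 and 10.3, 11.5 and 10.4 FPKM, and TYMS at 9.46, 8.82 and 8.86 and 4.17, 5.82 and 4.75, both without overlap (limma adjusted p = 0.00167 and 0.00444). Falls numbered 3 without PHGDH-siRNA replicate 1 or 3 or PHGDH-siRNA+Mix replicate 1 or 3, and 9 with the replicate block.

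Among stress and energy programmes the hypoxia, unfolded protein response and glycolysis lists held larger shares of rises than the 5.44% over all genes, and the NRF2 list a larger share of falls than 3.88%. Amino acid response genes under ATF4, which senses lack of amino acids, rose in 2 of 32 tested, with a median of 0.19, in 1 without PHGDH-siRNA replicate 1 and in 5 with the replicate block. One was WARS, tryptophanyl-tRNA synthetase and also an interferon-induced gene, at 30.6, 30.1 and 32.3 and 79.9, 75.8 and 64.7 FPKM (1.21, limma adjusted p = 7.18e-05). TRIB3 (0.34), CHAC1 (0.27) and DDIT3 (0.31) did not pass (limma adjusted p = 0.72, 0.913 and 0.833). Unfolded protein response genes rose in 5 of 22, and 22 of 22 lay above 0, with a median of 0.44. EDEM1 and DNAJB9, which act on misfolded proteins of the endoplasmic reticulum, rose by 0.72 and 0.86 (limma adjusted p = 0.00268 and 0.00482). The count was 2 without PHGDH-siRNA+Mix replicate 1 or 3, 8 without the replicate 2 pair and 14 with the replicate block. Hypoxia genes rose in 7 of 23 with CA9 down and a median of 0.84, and ANGPTL4, a lipase inhibitor, was at 12.3, 19.3 and 10.8 and 114, 94.1 and 87.8 FPKM (2.75, limma adjusted p = 3.5e-05). That count was 4 without PHGDH-siRNA+Mix replicate 3, 16 without PHGDH-siRNA replicate 2, 15 without the replicate 2 pair and 18 with the replicate block. SLC16A3, a lactate exporter, rose by 1.27 (limma adjusted p = 0.00123) among 5 of 25 glycolysis and glucose transport genes. Those 5 became 1 to 3 without any single library other than the replicate 2 libraries, and 9 with the replicate block. NRF2 and glutathione genes gave 0 up and 6 down of 31 tested, with a median of -0.07; 10 fell and 2 rose without the replicate 2 pair, and 11 fell and 4 rose with the replicate block. AKR1B10, an aldo-keto reductase, fell from 3.39, 2.96 and 3.14 to 0.325, 0.403 and 0.093 FPKM (-1.72, limma adjusted p = 3.57e-05), and GSR, glutathione reductase, fell by 0.90 (adjusted p = 0.000779). Neither cytosolic ribosomal proteins (51 tested) nor mitochondrially encoded mRNAs (13 tested) held a call, with medians of -0.15 and -0.19.

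The list with the lowest median held genes of the cell cycle. Of 43 DNA replication and S phase genes, all tested, 32 fell and 0 rose, with a median of -0.86, and 42 lay below 0. MCM3 (ENSG00000112118, hg38 chr6:52264009-52284881, minus strand), a subunit of the MCM2-7 helicase that unwinds replication origins, was at 55.9, 51.5 and 52 FPKM without Mix and 22.4, 25.4 and 21.3 with Mix. The 2 groups were tight and far apart (-1.17, SE 0.11, limma adjusted p = 7.18e-05). All 6 helicase subunits fell, MCM2 by 1.20, MCM4 by 1.04, MCM5 by 1.11, MCM6 by 1.01 and MCM7 by 1.13. CDT1, which loads the helicase, went from 59.2, 39.6 and 39.4 to 18.1, 18.4 and 14.7 FPKM (-1.36, limma adjusted p = 0.00139). E2F2 (ENSG00000007968, hg38 chr1:23506430-23531220, minus strand), a transcription factor that drives S phase entry, went from 3.4, 3.57 and 2.91 to 0.349, 0.842 and 0.773 FPKM, a 5.03-fold lower mean (-1.39, SE 0.15, limma adjusted p = 0.00018). CCNE1, cyclin E1, was the only list member above 0, at 4.69, 2.78 and 3.95 and 11.9, 4.13 and 8.02 FPKM (0.83, limma adjusted p = 0.0981, and 0.00345 with the replicate block). The promoters of MCM3 and E2F2 are shown with an E2F motif, TTTCCCGC or TTTGGCGC on either strand, in capitals.
MCM3, chr6:52284693-52284992, minus strand: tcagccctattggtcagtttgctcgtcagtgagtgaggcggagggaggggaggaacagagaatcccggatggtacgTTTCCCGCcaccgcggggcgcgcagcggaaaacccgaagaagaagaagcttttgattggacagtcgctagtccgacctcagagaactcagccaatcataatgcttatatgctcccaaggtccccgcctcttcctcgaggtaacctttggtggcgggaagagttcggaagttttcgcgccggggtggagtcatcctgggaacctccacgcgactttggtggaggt
E2F2, chr1:23531184-23531483, minus strand: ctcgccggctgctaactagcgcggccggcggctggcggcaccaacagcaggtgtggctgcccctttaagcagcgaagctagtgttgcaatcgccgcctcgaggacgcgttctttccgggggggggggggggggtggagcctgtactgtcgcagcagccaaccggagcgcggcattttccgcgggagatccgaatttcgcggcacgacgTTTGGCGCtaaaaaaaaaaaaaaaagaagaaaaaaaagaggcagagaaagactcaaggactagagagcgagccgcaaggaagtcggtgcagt
These motifs were found in 18 of 37 promoters of the replication list (48.6%), in 36 of 376 promoters of genes called down (9.57%) and in 7 of 532 of genes called up (1.32%). Among tested genes the share was 3.91% and among all promoters 2.31%. The list holds many genes known as E2F targets.

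Mitotic genes fell as well, in 16 of 34 tested (35 listed), with 0 up and a median of -0.65. FOXM1, a transcription factor of the G2 and mitotic programme, was at 49.4, 33.7 and 40.5 FPKM without Mix and 17.7, 22.9 and 18.2 with Mix (-1.03, SE 0.14, limma adjusted p = 0.00128). CCNB1, cyclin B1, went from 138, 105 and 143 to 64.4, 80.5 and 71.1 FPKM (-0.82, limma adjusted p = 0.00394), and its replicate 2 libraries lay closest together. MKI67 and TOP2A, common markers of cycling cells, were not called, at 7.83, 20.3 and 12 and 22.5, 36.9 and 32.8 FPKM without Mix and 3.47, 20.1 and 7.91 and 10.2, 37.1 and 20.7 with Mix (limma adjusted p = 0.589 and 0.431). In both the replicate 2 libraries differed least. The G2/M count was 8 without PHGDH-siRNA replicate 3 and 0 in a fit of the 2 PHGDH-siRNA groups alone, in which the replication list held 9 calls. Without the replicate 2 pair the counts were 37 and 21, and with the replicate block 39 and 21. CDKN1A, the cyclin-dependent kinase inhibitor p21, went the other way, from 96.2, 46.9 and 73.7 to 336, 167 and 253 FPKM (1.79, SE 0.28, limma adjusted p = 0.00255). Of 22 tested p53 targets 2 were called, CDKN1A and TNFRSF10B, a share close to the 9.32% called over all genes. Only 1 was called without PHGDH-siRNA replicate 3, and 5 rose and 2 fell with the replicate block. In bulk RNA, fewer cycling cells and less of these transcripts per cell cannot be told apart.

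**Figure D3:**
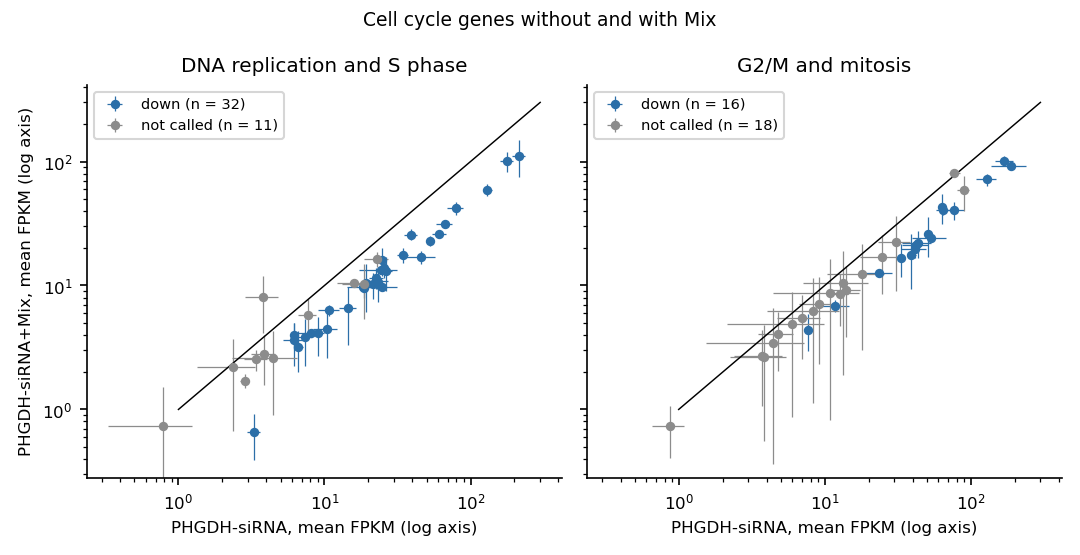
Mean FPKM without Mix (horizontal, log axis) and with Mix (vertical, log axis) for the tested DNA replication and S phase genes (left, n = 43) and G2/M and mitosis genes (right, n = 34). Points are genes, blue where called down; bars are SD over 3 libraries and the line marks equal levels; 32 genes on the left and 16 on the right were called, below the line.

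The 12 largest falls named by rule came from several functions. ALPP (ENSG00000163283, hg38 chr2:232378534-232382889, plus strand), placental alkaline phosphatase, was at 28.2, 16.8 and 17.6 FPKM without Mix and 0.807, 1.4 and 0.477 with Mix. Its mean was 23.4-fold lower, the largest fall among the called genes (-3.52, SE 0.21, limma adjusted p = 3.62e-06). NMU (ENSG00000109255, hg38 chr4:55595229-55636698, minus strand), the neuropeptide neuromedin U, was more even, at 101, 95.5 and 108 and 26, 26.6 and 30.1 FPKM (-1.84, SE 0.11, limma adjusted p = 2.75e-06). OLFML2A, a secreted olfactomedin-like protein, went from 11.9, 16.2 and 12.7 to 1.27, 3.6 and 1.89 FPKM (-2.22, limma adjusted p = 0.000126), CLU, the chaperone clusterin, fell by 1.89 and the zinc finger gene ZNF488 by 1.82 (adjusted p = 0.00196 and 3.85e-05). ID3 was given above. The remaining genes of the 12 also fell without overlap, and their calls were kept with the replicate block. Without the block, each call was lost when certain single libraries were left out. KRT13, a keratin of mucosal epithelia, was at 32.7, 239 and 31 and 4.08, 18.3 and 4.23 FPKM, high in both replicate 2 libraries (-2.99, limma adjusted p = 0.0271), and its call was lost without PHGDH-siRNA+Mix replicate 1 or 3 (adjusted p = 0.0876 and 0.104). KRT80, FOXQ1 and LFNG, which encode a keratin, a forkhead factor and a Notch-modifying glycosyltransferase, were low in both replicate 2 libraries (-2.00, -2.41 and -1.90). Their calls were lost without PHGDH-siRNA replicate 1 (adjusted p = 0.0837, 0.068 and 0.108) or replicate 3 (0.0954, 0.0767 and 0.12). KRT80 and LFNG also lost theirs without PHGDH-siRNA+Mix replicate 2 or 3 (adjusted p = 0.0512 to 0.0764), and LFNG without PHGDH-siRNA+Mix replicate 1 (0.0616). ANKRD2 (-1.73) was not called without PHGDH-siRNA replicate 3 (adjusted p = 0.0564), nor FGD3 (-1.72) without any 1 of the 5 libraries other than PHGDH-siRNA replicate 2 (adjusted p = 0.0805 to 0.148).

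The remaining lists held 1 to 4 calls each, to be read beside the 5.44% of all genes that rose and the 3.88% that fell. Immediate early genes, which answer growth factors and stress within minutes, rose in 3 of 24 tested (FOSL2, IER3 and KLF6) at 24 h, with a median of 0.30. That count was 1 without PHGDH-siRNA replicate 3 or PHGDH-siRNA+Mix replicate 1 or 3, and 5 without PHGDH-siRNA replicate 1 or without the replicate 2 pair. The replicate block gave 10 up and 1 down. FOSL2, an AP-1 subunit, was at 22.7, 22.5 and 19.2 FPKM without Mix and 39.9, 37 and 37.1 with Mix (0.80, limma adjusted p = 0.000779). Among epidermal lineage factors EHF rose and GRHL2, GATA3 and JAG2 fell, of 28 tested, with 1 fall left without PHGDH-siRNA replicate 1 or PHGDH-siRNA+Mix replicate 3 and 6 up and 7 down with the replicate block. EHF, an epithelial ETS factor, rose by 1.20 and JAG2, a Notch ligand, fell by 0.66 (limma adjusted p = 0.00894 and 0.00905). Genes of barrier lipid and sphingolipid synthesis gave 3 up and 1 down of 23 tested, 5 up without replicate 2 of either group, 7 up without the pair and 11 up with the replicate block. ALOXE3, a lipoxygenase of the epidermal barrier, went from 0.948, 0.846 and 0.884 to 6.55, 3.59 and 3.75 FPKM (1.54, limma adjusted p = 0.000288). Cholesterol synthesis held 1 rise in 25, MSMO1 (1.31, limma adjusted p = 0.00346), and 7 rises and 1 fall with the replicate block. Fatty acid synthesis held 1 rise in 16, FADS3. Nuclear subunits of oxidative phosphorylation held 1 fall in 35, ATP5F1A, with a median of -0.20, 5 falls under scaling to the sum of reads and 8 with the replicate block.

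The same treatment was measured in control-siRNA cells, in 6 libraries that share none with the PHGDH-siRNA groups. Under control siRNA 1358 of the same 14009 genes were called (9.69%), 807 up (5.76%) and 551 down (3.93%). Both arms called 599 genes up and 363 down, which is 73.7% of the PHGDH-siRNA calls and 70.8% of the control calls, and 0 were called in opposite directions. Of the 1306 genes called under PHGDH siRNA, 1297 had the same sign under control siRNA. Their median absolute log2 change was 0.78 under PHGDH siRNA and 0.74 under control siRNA. These genes were chosen by their test under PHGDH siRNA, which favours large values in that arm, so the 2 medians are not a like comparison. Across the 14009 genes, which are not independent replicates, the 2 sets of log2 changes correlated with a Pearson r of 0.88 and a Spearman rho of 0.80. Both sets come from 1 sequencing study and 1 model.

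**Figure D4:**
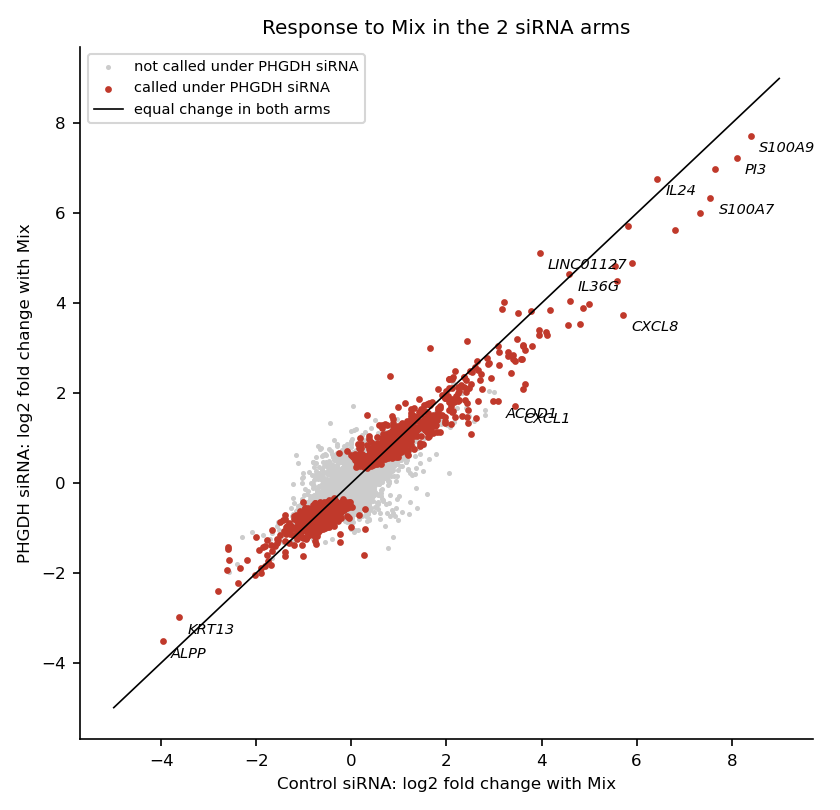
Log2 change with Mix under control siRNA (horizontal) and under PHGDH siRNA (vertical) for the 14009 tested genes, 1 point per gene, with the 1306 genes called under PHGDH siRNA in red. The line marks equal change; named genes such as CXCL8 (5.71 and 3.74) and ACOD1 (3.08 and 1.81) lie below it, and S100A9 (8.41 and 7.73) close to it.

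A difference between the arms was tested as the interaction of Mix with PHGDH siRNA, and 0 genes passed (0%; 204 had an unadjusted p under 0.05, and voom gave 0 with 153). The lowest unadjusted p-values in limma belonged to ACOD1, TNF and BCL2A1. ACOD1 was at 0 and 7.47 FPKM without and with Mix under control siRNA, against 0.0277 and 2.66 under PHGDH siRNA. Its log2 change was 3.08 and 1.81, a difference of -1.26 (95% interval -1.75 to -0.78, unadjusted p = 8.99e-05 from limma, adjusted p = 1). TNF changed by 2.45 under control siRNA and 1.33 under PHGDH siRNA, a difference of -1.12 (-1.64 to -0.60). For BCL2A1, an anti-apoptotic NF-kappaB target, the changes were 2.09 and 1.32, a difference of -0.77 (-1.14 to -0.40). All 3 rose in both arms, and the estimate was smaller under PHGDH siRNA. CXCL8 rose by 5.71 and 3.74 (-1.97, -3.62 to -0.32) and S100A7 by 7.55 and 6.35 (-1.20, -1.88 to -0.53), with an adjusted p of 1 in both. The mean of CXCL8 without Mix was 3.31 FPKM under control siRNA and 11.6 under PHGDH siRNA, and with Mix 224 and 167. Its smaller change thus goes with a higher untreated mean. The means of S100A7 were 0.922 and 0.661 without Mix and 358 and 137 with it. For IL36G the changes were 4.58 and 4.65, a difference of 0.07 with an interval of -1.23 to 1.37, and for NMU -1.82 and -1.84, a difference of -0.03 (-0.38 to 0.32). The interval of IL36G admits differences of over 1 log2 unit in either direction, and a missing call does not show that the arms respond alike. The interaction gave 1 call without the replicate 2 pair, the small RNA gene RF00019 (ENSG00000201916, -1.47, adjusted p = 0.0299), and 5 calls with no filter on low values, named in the closing section.

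**Figure D5:**
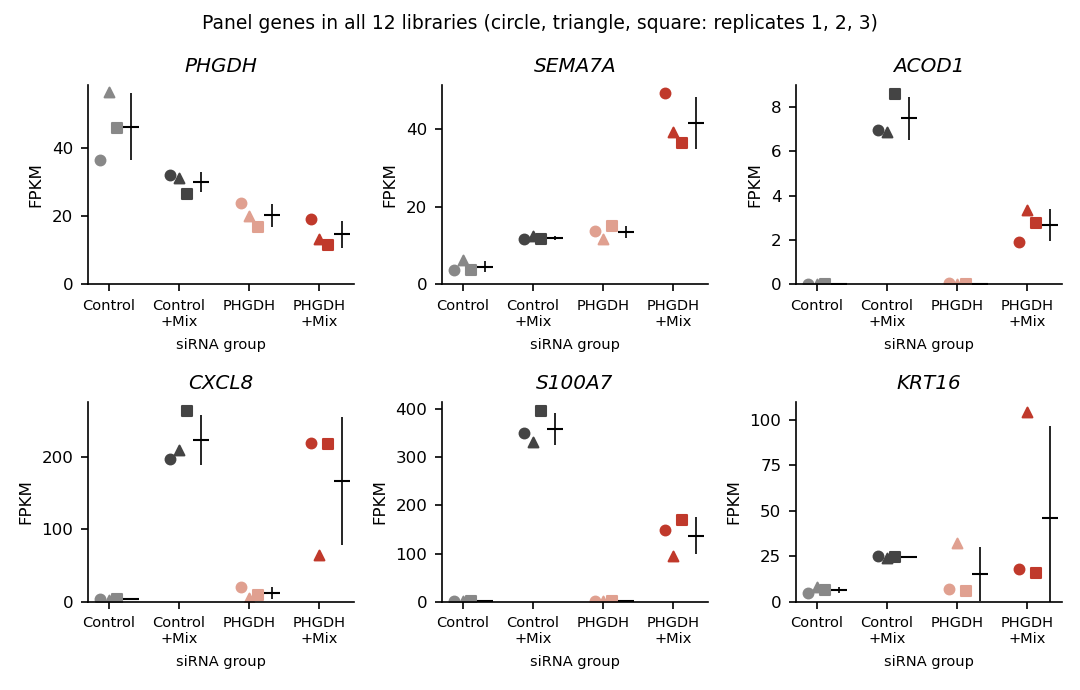
FPKM of PHGDH, SEMA7A, ACOD1, CXCL8, S100A7 and KRT16 in all 12 libraries by group, 1 symbol per library (circle, triangle and square for replicates 1, 2 and 3) with the group mean and SD beside them. ACOD1 and S100A7 are higher with Mix in both arms, and KRT16 shows the 2 high replicate 2 libraries of the PHGDH-siRNA groups.

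SEMA7A, a membrane-anchored semaphorin, and ARID3B, a DNA-binding protein, sit near each other on chromosome 15 and rose with Mix in both arms. Under PHGDH siRNA SEMA7A was at 13.8, 11.7 and 14.9 FPKM without Mix and 49.1, 39.2 and 36.3 with Mix (1.55, SE 0.18, limma adjusted p = 0.000356), and under control siRNA at 3.6, 6.17 and 3.75 and 11.6, 12.5 and 11.6 (1.26, adjusted p = 0.0012). The treated control libraries stood close to the untreated PHGDH-siRNA libraries. ARID3B was at 4.9, 4.87 and 4.66 and 10.1, 8.81 and 7.43 FPKM under PHGDH siRNA (0.74, limma adjusted p = 0.00234) and changed by 0.68 under control siRNA (adjusted p = 0.00338). The differences between the arms were 0.29 (-0.30 to 0.88) and 0.06 (-0.31 to 0.43), with an adjusted p of 1 in limma.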

How the data were processed

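RNA sequencing libraries of HaCaT cells were prepared with a NEBNext Ultra RNA kit from RNAiso Plus extracts, per the labels' protocols. The genome build hg38 and the tools featureCounts 1.5.0-p3, HISAT2 2.0.5 and CASAVA are listed without roles in the submitters' processing notes. The authors deposited 1 table of FPKM for 12 libraries and 58735 genes. Multiplied by gene length, its values were whole multiples of 1 step per library (100% of values up to 200 reads, within 0.05 read), so reads could be recovered: 16408195 to 20901128 in the 6 PHGDH-siRNA libraries and 16403845 to 20901128 over all 12. The steps matched scaling by median-of-ratios size factors, which no header states. The sources used here do not say whether counting used strand, so genes that overlap another gene (among them C1R, CFB, PLAU, MMP1, TYMS, CTSB and SOD2) may share reads. SOD2 also overlaps a second identifier with the same symbol on the same strand, and the values given are those of ENSG00000112096.

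Changes were fitted with limma 3.58.1 (R 4.3.3, statmod 1.5.0; trend and robust options) on log2(FPKM + 1) over all 12 libraries, with 1 coefficient per group and Benjamini-Hochberg adjustment over 14009 genes; the threshold was an adjusted p of 0.05. Log2 changes are on this scale and understate changes of low genes; folds are ratios of mean FPKM. Since 3 against 3 libraries allow no exact permutation p below 0.1, none was used. On simulated data (13675 genes) the mix response fit found 11 of 67 genes changed 1.5-fold, 44 of 67 changed 2-fold and 66 of 66 changed 4-fold, with 11 false calls.

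Samples of the PHGDH-siRNA groups with the same number deviated together (correlations of 0.700, 0.783 and 0.475 for numbers 1, 2 and 3, against -0.706 to 0.356 for unlike numbers). A deviation of replicate 2 alone also enters the other pairs through the group mean. Since all 3 exceeded 0.1, the number was also fitted as a block within them. Unlike numbers 1 and 3 exceeded 0.1 too (0.329 and 0.356), so this rule cannot tell pairing from a deviation of replicate 2 alone. No label says that the numbers mark a shared culture or day, and the blocked p-values hold only if the libraries are paired. In the control groups the correlations were -0.330, 0.0594 and -0.135. Replicates differed by more than counting noise in every group. The mean ratio of squared difference to counting variance was 4.38 to 11.6 between Control-siRNA+Mix libraries and 34.9 to 174 between PHGDH-siRNA+Mix libraries. Without Mix it was 13.8 to 85.7 in Control-siRNA and 17.6 to 136 in PHGDH-siRNA. The fit pools these unlike spreads, so the p-values given for the PHGDH-siRNA groups may be too small.

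Named were the 12 largest rises and falls past the threshold with a mean of 1 FPKM or more and no overlap, up to 6 called members of a list, the 3 lowest interaction p-values and a fixed panel; other genes were named after their values were seen. The members and the 44 gene lists were chosen with earlier results of these data known. Alternatives were the pseudocount, filters, scaling, voom on recovered reads, blocks, the 2 groups alone and leaving out libraries. Promoters came from a RefSeq table, and 9258 tested genes matched 1 of 27326 symbols. A motif was counted once per promoter, and motifs were searched independently, so matches of different motifs may overlap. A few members of the lists are counted but not reported by name here.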

Additional observations from a re-analysis of the deposited data

How the results depend on the processing

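The mix response under PHGDH siRNA called 762 genes up and 544 down. The counts stayed within 1.5 times of these with a pseudocount of 0.1, a filter at 2 FPKM, upper quartile scaling, voom, plain eBayes, a block over all 12 samples and a filter over all 4 groups. With no filter on low values 474 rose and 287 fell. Leaving out 1 library gave 426 to 928 up and 262 to 742 down, and leaving out the replicate 2 pair gave 1228 and 1023. For the control siRNA response the pair's removal gave 1603 up and 1402 down, and leaving out 1 library 423 to 664 up and 208 to 521 down. The interaction gave 0 calls in each single-library removal, 1 without the pair and 5 with no filter (RNU6-501P, AC044802.2, AC007066.1, AC108515.1 and AC109454.4, adjusted p = 0.00759 to 0.0183 in limma; none had a group mean above 0.532 FPKM). None of the 180 named genes called changed direction under these alternatives, while the balance of rises over falls turned under scaling to the sum of reads, with 635 up and 868 down.

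The replicate block within the PHGDH-siRNA groups gave 1806 up and 1542 down, and 1758 and 1506 for the control response, which shares the estimate of spread. The 2 PHGDH-siRNA groups alone gave 197 up and 57 down without the replicate block and 2187 and 1901 with it, on 2 residual degrees of freedom. Without the block, that fit called 9 NF-kappaB genes in place of 15, 7 matrix proteases up in place of 13, 7 basal genes in place of 11, 4 wound genes in place of 9, 5 cytokines in place of 8, 3 metabolic enzymes in place of 9, 1 chemokine in place of 6, and 0 serine and folate falls in place of 5. Beyond the results given with their blocked value, the block within the PHGDH-siRNA groups changed no call of a named gene. Of 180 named genes called, 96 were lost in the 2 groups alone, 43 with no filter, 7 to 43 when 1 library was left out and 3 without the pair. In a simulation of the fit without a block 11 of 67 changes of 1.5-fold were found. The simulated libraries had 1 common dispersion (0.0313) and no shared deviations of replicates, and few genes were changed. That rate therefore cannot be carried over to these libraries.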

Other observations

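Genes outside the lists, chosen after their values were seen, included both ends of vitamin D activation and breakdown. CYP27B1, the enzyme that makes active vitamin D, was at 4.88, 11.8 and 4.12 FPKM in PHGDH-siRNA and 73.5, 73.4 and 63.3 in PHGDH-siRNA+Mix (3.29, limma adjusted p = 4.41e-05). CYP24A1, which degrades it, was at 0.213, 15 and 0.419 and 26.9, 128 and 28.7 FPKM, highest in both replicate 2 libraries (3.98, limma adjusted p = 0.0157).

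IL13RA2, a decoy receptor for IL-13, was at 0.149, 0.16 and 0.198 FPKM without Mix and 15.9, 19 and 13.5 with Mix, with little spread (3.86, limma adjusted p = 2.29e-08; 3.16 under control siRNA). GZMB, the cytotoxic protease granzyme B, reached 29.4, 9.11 and 18.4 FPKM from 0.342, 0.369 and 0.228 (3.79, limma adjusted p = 3.83e-05), while the T cell genes CD3D and CD3E and the leukocyte gene PTPRC were at 0 in all 6 libraries. CCL3L1, a chemokine near-identical to CCL3, went from 0.123, 0.461 and 0 to 17.7, 28.4 and 12.1 FPKM (4.03, limma adjusted p = 3.62e-06), and the split between the 2 genes is uncertain. PTAFR, the receptor of platelet-activating factor, rose from 7.89, 8 and 7.92 to 48.4, 50.1 and 48.1 FPKM (2.48, limma adjusted p = 4.96e-08). CYP1A1, a target of the aryl hydrocarbon receptor, fell from 4.24, 4.87 and 2.59 to 0.779, 0.535 and 0.362 FPKM (-1.63, limma adjusted p = 0.000344). The 12 largest rises named by rule also held PDZK1IP1 and LINC01127. PDZK1IP1 went from 2.48, 4.57 and 2.24 to 242, 161 and 227 FPKM (5.71, limma adjusted p = 1.18e-07). LINC01127 went from 0.11, 0.516 and 0.0977 to 16.7, 287 and 14.4 FPKM (5.13, limma adjusted p = 0.00346). Its change was 3.90 without the replicate 2 pair.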
